A study of Mus musculus with 24 samples.

Results

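Fed livers of α7HMZ mice were compared with fed livers of WT mice at 20:30, early in the dark and active phase of the mouse (the room was lit from 7:00 to 19:00). The comparison held 6 of the 24 poly(A) RNA libraries of the series, 3 α7HMZ and 3 WT livers, each from 1 mouse, and all 6 were run on flow cell 377. The α7HMZ mice are homozygous for an exon swap in Hnf4a and make only the P2 form of the protein, P2-HNF4α, in every tissue that uses the gene, while WT livers make P1-HNF4α. Both groups were males of 16 to 20 weeks on a mixed 129/Sv plus C57BL/6 background, with free access to chow. All 13334 genes that passed the filter on low counts, of 23411 in the table, were described, and the 12 fed livers of the light phase (10:30 and 13:30) were used where the difference at 20:30 was set against an earlier one. Because whole tissue was sequenced, fewer cells of a type and less RNA per cell cannot be told apart.

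HNF4α is a nuclear receptor that binds DNA as a homodimer and keeps many genes of the hepatocyte active, among them genes of lipoprotein export, bile acid synthesis, drug metabolism and clotting. Its gene has a pair of promoters. The P1 promoter serves the adult liver, and the P2 promoter serves the fetal liver, the pancreas and parts of the gut. Products of P2 lack the N-terminal activation function that P1 products carry. The 150 bases before each start are shown because the genotypes differ in which of the first exons reaches the transcript (RefSeq starts on GRCm38.p6, 5′ to 3′, no base in capitals).
P2 start, chr2:163506707-163506856, plus strand: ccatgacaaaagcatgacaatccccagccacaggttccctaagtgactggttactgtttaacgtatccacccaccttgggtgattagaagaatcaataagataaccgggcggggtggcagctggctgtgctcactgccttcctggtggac
P1 start, chr2:163547005-163547154, plus strand: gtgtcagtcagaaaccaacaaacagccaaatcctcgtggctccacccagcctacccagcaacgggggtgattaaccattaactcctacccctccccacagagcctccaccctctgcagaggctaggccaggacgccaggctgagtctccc

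Hnf4a lies on chromosome 2 from 163506808 to 163572910 (mm10). It had 986, 1117 and 1279.6 CPM in α7HMZ livers and 897, 577 and 922 CPM in WT livers (log2 fold change 0.50 ± 0.17, adjusted p = 0.0443). CPM are counts scaled to a common library size. The value after ± is the standard error of a log2 fold change of α7HMZ over WT, and adjusted p-values come from edgeR's quasi-likelihood test with Benjamini-Hochberg adjustment over all genes tested. Each α7HMZ liver lay above each WT liver. Reads were counted over the whole gene, so transcripts of P1 and P2 are counted together and the level is no test of the genotype. Hnf4a lost its call without α7HMZ liver 2 or 3 or WT liver 2 (adjusted p = 0.0733 to 0.178).

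Total counts were 22850811, 15256970 and 16111762 in α7HMZ livers 1 to 3, and 22197032, 8545959 and 19058751 in WT livers 1 to 3. The hepatocyte markers were abundant in all 6 livers, with Alb at 94539, 84439.6 and 71621 CPM in α7HMZ livers and 118883, 91701 and 118237 CPM in WT livers. Several livers held raised levels of transcripts known from bile duct or pancreas, and the labels do not give their source. Krt19, a keratin of bile duct cells, had 14.2, 2.105 and 12.5 CPM in α7HMZ livers and 1.04, 18.4 and 4.27 CPM in WT livers. It was high in α7HMZ livers 1 and 3 and in WT liver 2, and the other 12 fed livers had at most 1.78 CPM. Ctrb1, a digestive protease precursor of pancreatic acinar cells, had 1.86, 0 and 3.31 CPM in α7HMZ livers and 0, 5.02 and 0.319 CPM in WT livers, with the same 3 livers on top, and was at 0 in the 12 light phase livers. In WT liver 2, 16 of 18 acinar genes had at least 3 counts, against 4, 3 and 3 in the α7HMZ livers and 3 and 4 in WT livers 1 and 3. Cela1 and Cela2a were among these in every liver and were present in the 12 light phase livers too. In α7HMZ livers 1 and 3 the acinar genes Cpb1, Pnlip, Cel, Clps and Try4 were at 0. WT liver 3 had Krt19 and Ctrb1 at lower levels, Ctrb1 in 5 reads. Of 5 islet genes Gcg, Sst and Iapp were at 0 in all 6 livers, and Ins2 and Ins1 had 4 reads and 1 read in α7HMZ liver 1 and 0 in the others. Both groups held high and low livers, and neither Krt19 (log2 fold change 0.45 ± 0.66, adjusted p = 0.677) nor Ctrb1 (log2 fold change 0.37 ± 1.28, adjusted p = 0.871) passed the test between genotypes. Without WT liver 2 Krt19 passed as higher in α7HMZ livers (log2 fold change 1.91, adjusted p = 0.0421).

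**Figure D1:**
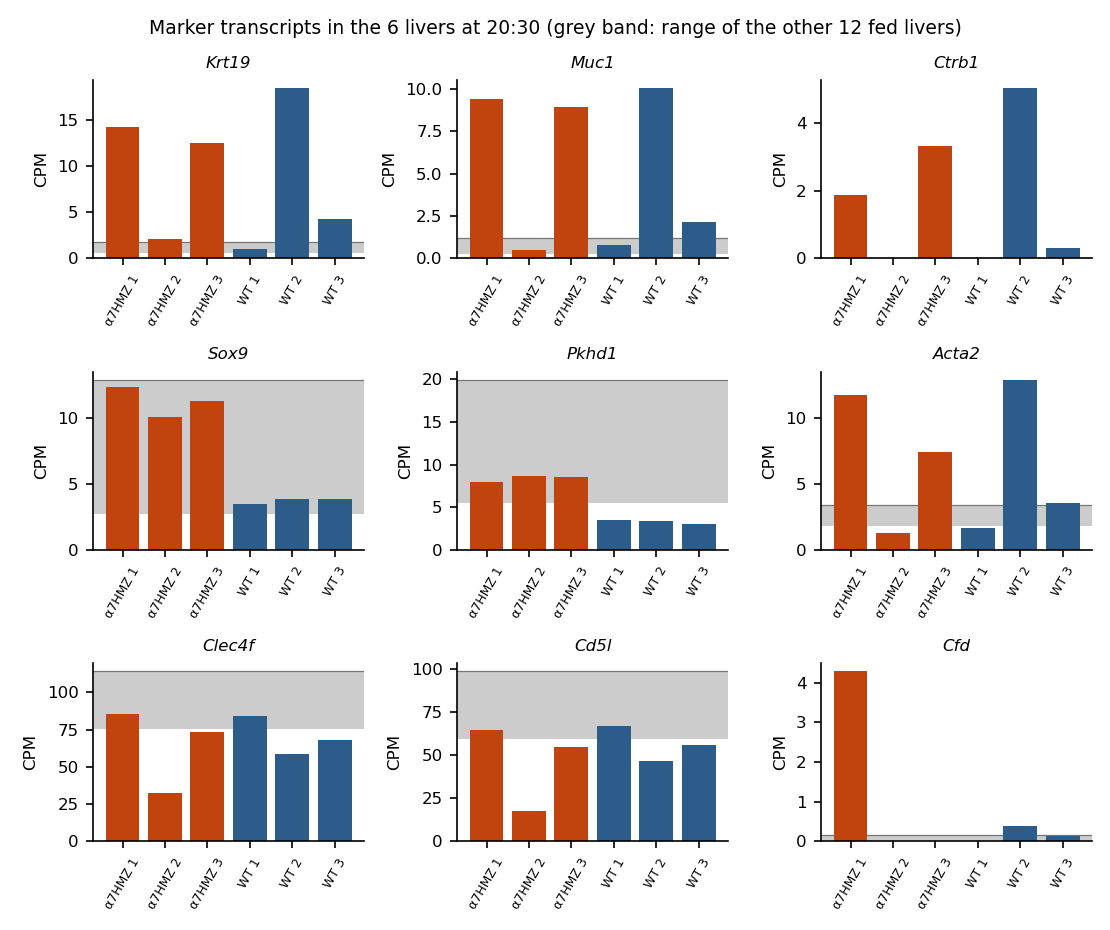
Bars give the CPM of 9 marker genes in each α7HMZ and WT liver at 20:30, and the grey band behind them gives the range of the 12 fed livers of the light phase. Krt19, Muc1, Ctrb1 and Acta2 were high in α7HMZ livers 1 and 3 and WT liver 2, while Sox9 and Pkhd1 were higher in all 3 α7HMZ livers.

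The bile duct markers did not all follow Krt19. Muc1, a mucin of ducts, did, with 9.40, 0.495 and 8.93 CPM in α7HMZ livers and 0.790, 10.0 and 2.17 CPM in WT livers, and so did the smooth muscle actin gene Acta2, with 11.7, 1.30 and 7.41 CPM in α7HMZ livers and 1.63, 12.9 and 3.57 CPM in WT livers. The duct markers Krt7, Epcam, Cldn7 and Ehf were also highest in α7HMZ livers 1 and 3 and WT liver 2. Sox9, a transcription factor of ducts and progenitor cells, had 12.4, 10.1 and 11.3 CPM in α7HMZ livers, against 3.503, 3.86 and 3.83 CPM in WT livers (log2 fold change 1.60 ± 0.28, adjusted p = 0.000663). Pkhd1, the fibrocystin gene of the duct cilium, had 7.93, 8.67 and 8.59 CPM in α7HMZ livers, against 3.45, 3.35 and 3.06 CPM in WT livers (log2 fold change 1.35 ± 0.23, adjusted p = 0.000484). Pkhd1 was as high in α7HMZ liver 2, which was low in Krt19, as in the other α7HMZ livers. Sox9 was lowest of the α7HMZ livers there, at 10.1 CPM, but above each WT liver at 20:30. The 12 light phase livers had 2.73 to 12.9 CPM of Sox9 and 5.49 to 19.9 CPM of Pkhd1. The WT livers at 20:30 lay below that range of Pkhd1. Dsg2, a desmosomal cadherin, was the third of 10 tested duct markers to rise (log2 fold change 0.40 ± 0.14, adjusted p = 0.0471), and none fell. The genes Plin1, Retn, Cfd and Adipoq of fat cells were highest in α7HMZ liver 1, where Cfd had 4.28 CPM, against at most 0.386 CPM in the other 5 livers. The summed level of 14 Kupffer cell markers was 438, 142 and 349 CPM in α7HMZ livers and 407, 299.6 and 351 CPM in WT livers, with α7HMZ liver 2 lowest. The 15 markers of the sinusoidal endothelium summed to 408, 347 and 586 CPM in α7HMZ livers and 532, 528 and 597 CPM in WT livers. The ribosomal transcript Rn45s took 3.76% of the counts of α7HMZ liver 3 and at most 0.215% of those of the others. These values are set beside the results below, each of which was also computed without α7HMZ livers 1 and 3 and WT liver 2, named here the 3 Krt19-rich livers. That setting leaves α7HMZ liver 2, the one low in Kupffer markers, against WT livers 1 and 3. With so few livers a call can be lost from size alone, so such losses are no test of Krt19-rich tissue. In a fit with the log2 CPM of Krt19 as a covariate 920 genes were higher and 1262 lower, and of the genes named here Dsg2, Mmp19, Mt1, Nr1d1, Rpl27 and Src lost their call (adjusted p = 0.0603 to 0.163). Dsg2 lost its call without α7HMZ liver 1, 2 or 3 or WT liver 1 or 2 (adjusted p = 0.0744 to 0.132).

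Across the transcriptome, 1105 genes rose and 1446 fell in α7HMZ livers, which is 8.29% and 10.8% of those tested (19.1% in all). Under upper quartile scaling the split was 1354 higher and 1153 lower. Large falls were as frequent as large rises, with 338 genes at least 2-fold higher and 329 at least 2-fold lower among those called. The median log2 fold change over all genes was 0.02. The 3 α7HMZ livers lay wholly above the 3 WT livers in 16.3% of the genes and wholly below them in 16.9%, together 33.2%. Without the 3 Krt19-rich livers 338 genes were higher and 523 lower (6.29% of the genes then tested), and 667 of these calls were among the calls on all livers, in the same direction. Without WT liver 3 the counts were 547 and 852.

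**Figure D2:**
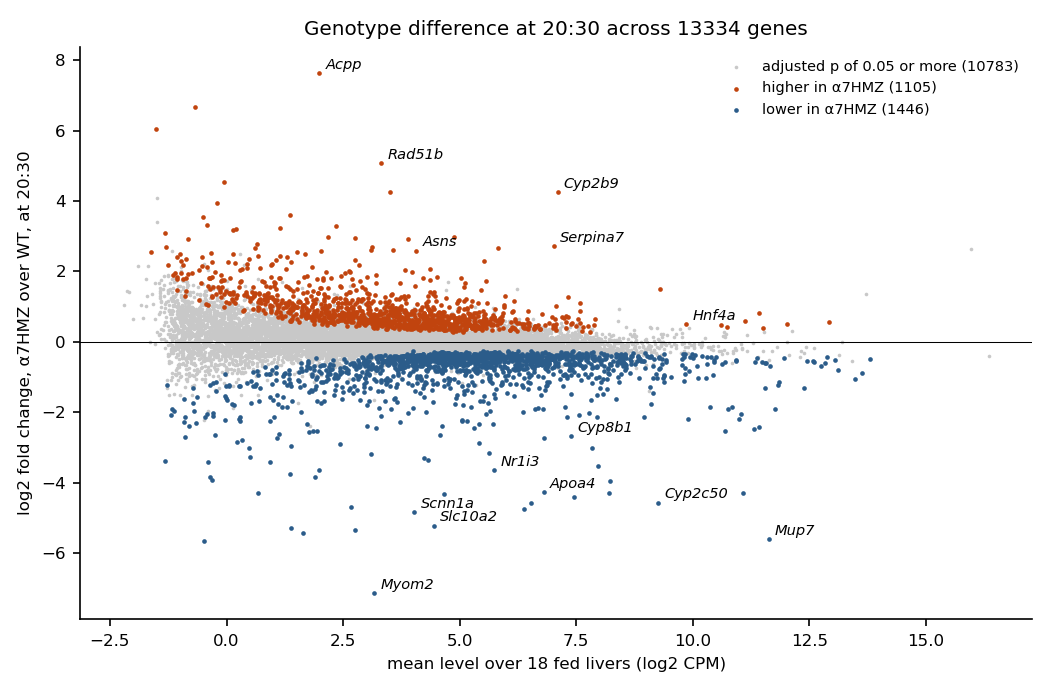
Each point is a gene, with its mean level over the 18 fed livers (log2 CPM) on the x axis and its log2 fold change of α7HMZ over WT livers at 20:30 on the y axis. The 1105 genes called higher are in rust and the 1446 called lower in blue, and called genes lie at every level above the filter.

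The 12 largest falls included genes of a bile acid transporter, of a sarcomere protein and of channels. Slc10a2, the sodium-dependent bile acid transporter best known from the ileum, had 0.635, 0.681 and 0.730 CPM in α7HMZ livers, against 24.7, 27.4 and 24.7 CPM in WT livers (log2 fold change -5.22 ± 0.40, adjusted p = 5.85e-08). It lies on chromosome 8 from 5083219 to 5105351. Myom2, a protein of the M-band of striated muscle, had 0, 0.433 and 0.0560 CPM in α7HMZ livers, against 23.3, 23.8 and 14.04 CPM in WT livers (log2 fold change -7.14 ± 0.61, adjusted p = 2.19e-07). In all, 8 reads of Myom2 were counted in the 3 α7HMZ livers and 877 in the 3 WT livers. Scnn1a, a subunit of the epithelial sodium channel, had 1.23, 1.11 and 1.01 CPM in α7HMZ livers, against 33.5, 32.0 and 32.1 CPM in WT livers (log2 fold change -4.84 ± 0.17, adjusted p = 2.37e-12). Aqp4, a water channel, fell to 0.0790, 0.124 and 0.0560 CPM in α7HMZ livers, against 5.13, 1.80 and 3.32 CPM in WT livers (log2 fold change -5.31 ± 0.56, adjusted p = 3.04e-06). Extl1, a glycosyltransferase of the exostosin family, had 0.198, 0.310 and 0.112 CPM in α7HMZ livers, against 10.5, 8.88 and 7.97 CPM in WT livers (log2 fold change -5.45 ± 0.32, adjusted p = 1.21e-09). The 12 largest falls were picked among called genes without overlap between the groups, so the separation of these 5 genes follows from that choice.

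The other genes of the 12 largest falls were Mup7 (-5.61 ± 0.60), 2010003K11Rik (-5.36 ± 0.42), BC089597 (-4.76 ± 0.17), the C-type lectin gene Clec2h (-4.71 ± 0.62), Cyp2c50 (-4.57 ± 0.24), the carboxylesterase gene Ces2e (-4.57 ± 0.22) and Serpina4-ps1 (-4.41 ± 0.84). Mup7, Cyp2c50, Ces2e and Serpina4-ps1 belong to families of near-identical genes, and only reads with 1 alignment were kept, so their single values are uncertain.

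Among the largest rises, Rad51b, a gene of homologous recombination, had 17.97, 15.5 and 13.8 CPM in α7HMZ livers, against 0.345, 0.643 and 0.510 CPM in WT livers (log2 fold change 5.08 ± 0.36, adjusted p = 1.42e-08). Acpp, the prostatic acid phosphatase gene, had 4.09, 5.94 and 7.69 CPM in α7HMZ livers, against 0.0490, 0 and 0 CPM in WT livers. The α7HMZ livers held 336, a ratio of their CPM of 248 with an exact 95% interval of 44.2 to 9833, which covers counting error only (adjusted p = 0.019). Abcd2, which carries very long fatty acyl-CoA into peroxisomes, had 35.9, 26.7 and 28.9 CPM in α7HMZ livers, against 4.34, 2.83 and 3.96 CPM in WT livers (log2 fold change 2.99 ± 0.21, adjusted p = 1.13e-08). Serpina7, the thyroxine-binding globulin, reached 59.5, 124 and 106 CPM in α7HMZ livers, against 19.4, 7.85 and 14.9 CPM in WT livers (log2 fold change 2.73 ± 0.28, adjusted p = 2.62e-06). These genes too were picked among called genes without overlap between the groups, so their separation follows from that choice. Acpp lost its call without WT liver 1 or 3 (adjusted p = 0.0754 to 0.0872).

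Other large rises were those of the close paralogs Cyp2b9 (4.26 ± 0.37) and Cyp2b13 (4.24 ± 0.42), of Myom3, another protein of the sarcomere (3.61 ± 0.32), and of Tspyl4 (2.95 ± 0.21), Pcp4l1 (2.68 ± 0.22), 1700048O20Rik (3.22 ± 0.44) and 1810064F22Rik (2.68 ± 0.42). Myom2 and Myom3 thus moved in opposite directions.

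**Figure D3:**
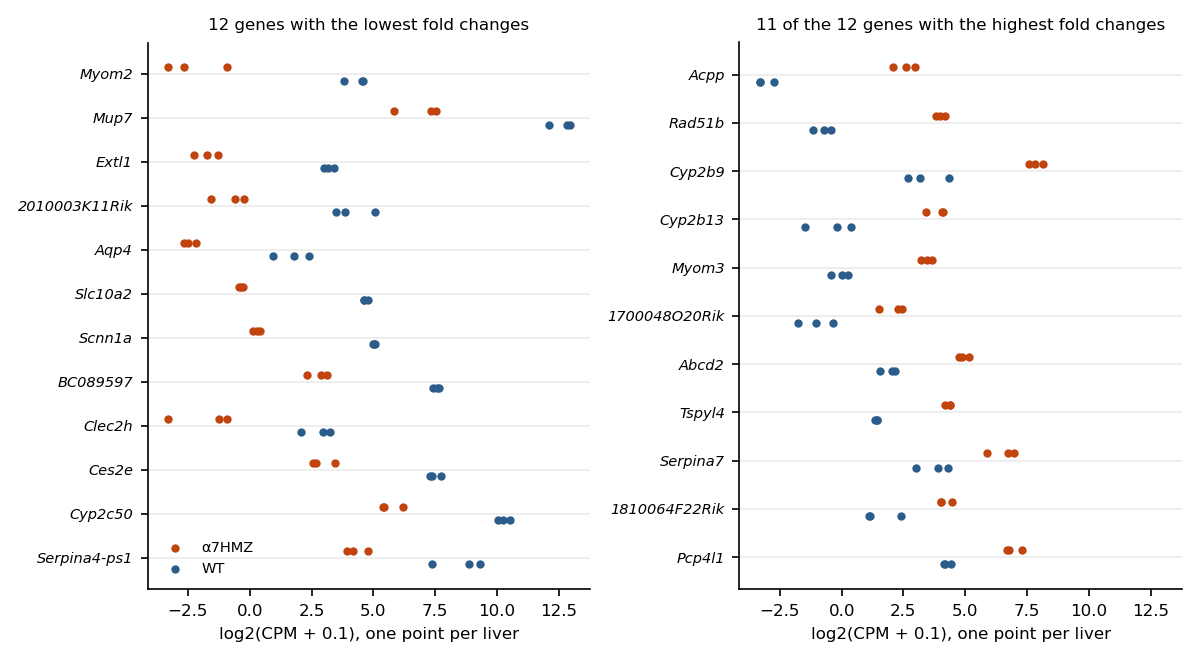
Each row is a gene and each point a liver, on a scale of log2(CPM + 0.1), with α7HMZ livers in rust above WT livers in blue. All 23 genes were picked among called genes in which the 3 α7HMZ livers and the 3 WT livers did not overlap.

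The gene lists of liver functions were led by falls in drug metabolism, lipoprotein export and male-biased genes. For each list the members past the test are counted and set beside the 10.8% of all genes that fell and the 8.29% that rose. The lists overlap, and no test of a list as a whole was made. Up to 5 named members of each list were taken by smallest p. That their livers do not overlap between the groups follows largely from this choice and is no further evidence.

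**Figure D4:**
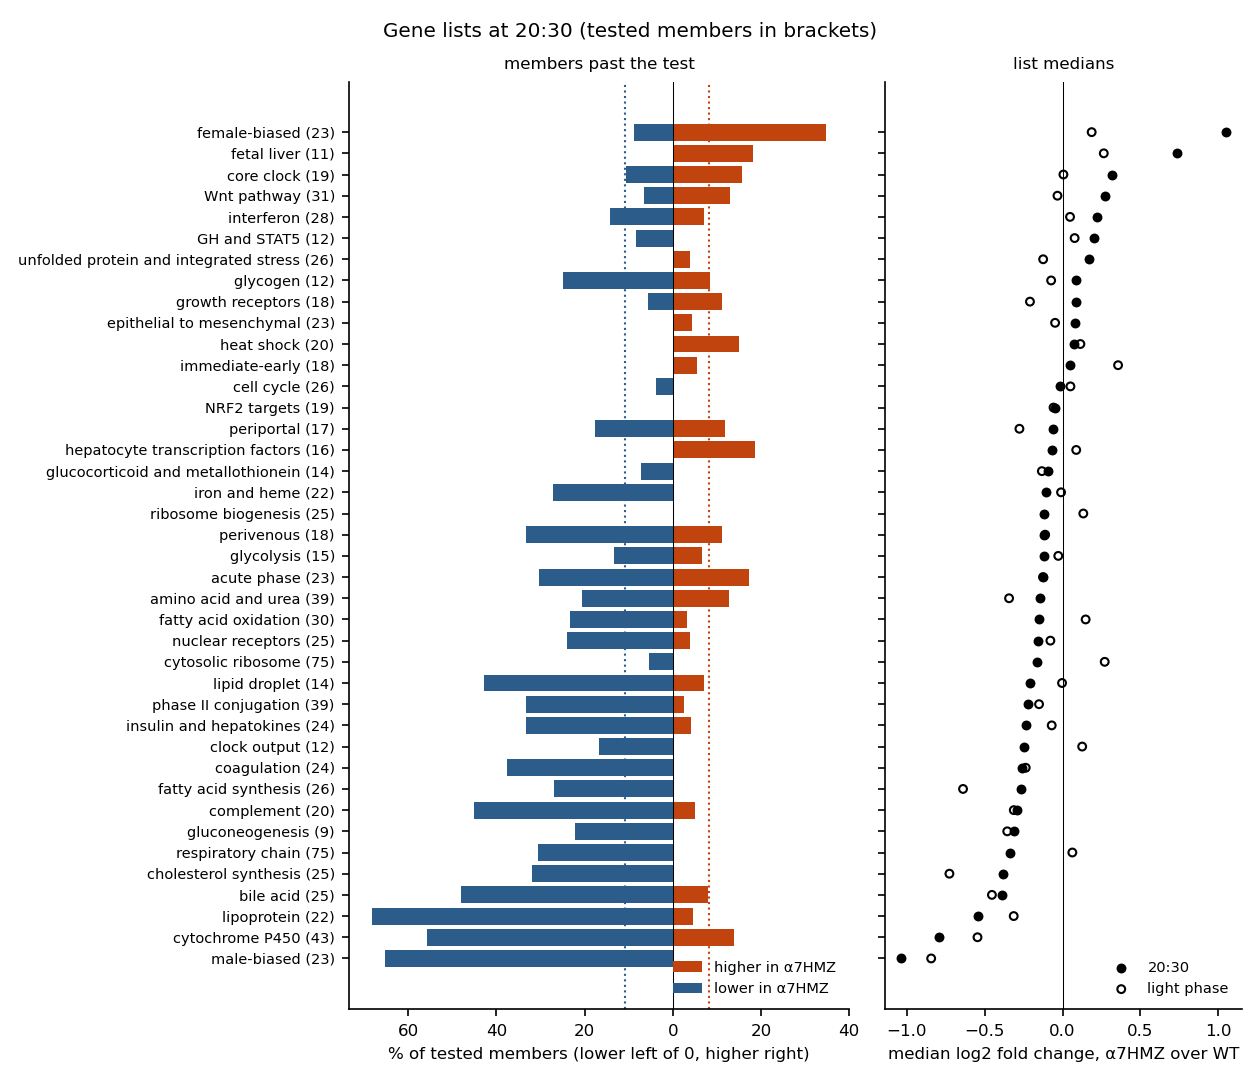
The left panel gives, for each list, the share of tested members that was lower (blue, left of 0) or higher (rust, right of 0) in α7HMZ livers, with dotted lines at the shares over all genes, 10.8% and 8.29%. The right panel gives the median log2 fold change of each list at 20:30 (filled) and in the light phase (open), with male-biased, P450 and lipoprotein genes lowest at 20:30 and female-biased genes highest.

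Cytochrome P450 enzymes oxidize drugs, steroids and fatty acids. Of 43 P450 genes 24 were lower and 6 higher, with a median of -0.79. Cyp2c50 had 41.5, 72.9 and 42.6 CPM in α7HMZ livers, against 1200.2, 1042 and 1478 CPM in WT livers, and its neighbour in the family Cyp2c54 had 26.7, 43.0 and 29.4 CPM in α7HMZ livers, against 595, 529 and 805 CPM in WT livers. Cyp2a12 had 41.3, 67.5 and 37.6 CPM in α7HMZ livers, against 549.9, 547 and 579.8 CPM in WT livers (log2 fold change -3.52 ± 0.21, adjusted p = 1.36e-09). In each of them the highest α7HMZ liver lay far below the lowest WT liver. Cyp2d26 (-2.14 ± 0.10) and Cyp2d40 (-2.45 ± 0.14) fell by smaller amounts with little spread. Among the P450 genes that rose, Cyp2b9 had 189, 226 and 283 CPM in α7HMZ livers and 20.1, 8.88 and 6.38 CPM in WT livers (log2 fold change 4.26 ± 0.37, adjusted p = 3.03e-07), and Cyp17a1, the steroid 17α-hydroxylase, had 101, 139 and 138 CPM in α7HMZ livers and 36.2, 46.8 and 31.8 CPM in WT livers (log2 fold change 1.72 ± 0.25, adjusted p = 8.82e-05). Reads of close paralogs of the Cyp2a, Cyp2b, Cyp2c and Cyp2d clusters cannot always be told apart. Leaving out the 3 Krt19-rich livers, 5 higher and 16 lower were called within the list, of which 4 and 16 were called the same way with all 6 livers, and over the 17 other settings 16 to 25 members were lower and 4 to 7 higher.

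Nr1i3 encodes the receptor CAR, which switches on P450 genes in response to drugs. It had 10.2, 12.6 and 10.8 CPM in α7HMZ livers, against 154, 134 and 131 CPM in WT livers (log2 fold change -3.65 ± 0.20, adjusted p = 7.74e-10), one of the largest falls of a regulator. Of 25 nuclear receptor genes 6 were lower and 1 was higher. Nr1h3, the oxysterol receptor LXRα, had 85.3, 80.6 and 75.6 CPM in α7HMZ livers, against 134, 134 and 171 CPM in WT livers (log2 fold change -0.87 ± 0.11, adjusted p = 2.53e-05). Esr1, the estrogen receptor gene, was the one that rose, with 25.7, 31.8 and 39.2 CPM in α7HMZ livers and 20.2, 17.8 and 14.4 CPM in WT livers (log2 fold change 0.88 ± 0.25, adjusted p = 0.0223). In these 3 genes the groups did not overlap. The list held 0 higher and 2 lower without the 3 Krt19-rich livers. Esr1 lost its call without α7HMZ liver 3 or WT liver 3 (adjusted p = 0.0979 to 0.113).

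Phase II enzymes conjugate drugs and bilirubin. Of 39 tested genes 13 were lower and 1 was higher (median -0.22, and 1 higher and 7 lower without the 3 Krt19-rich livers). With offsets for GC content and full quantiles (below, offsets for GC and quantiles) 8 were higher and 12 lower. Sult1b1, a sulfotransferase of thyroid hormones and phenols, had 6.31, 7.99 and 7.02 CPM in α7HMZ livers, against 43.8, 37.2 and 51.5 CPM in WT livers (log2 fold change -2.65 ± 0.18, adjusted p = 8.69e-09). Ugt3a1 (-1.38 ± 0.15) and Ugt3a2 (-1.53 ± 0.13), glycosyltransferases, and Tpmt (-1.14 ± 0.14), the thiopurine methyltransferase, fell together. Each α7HMZ liver was below each WT liver in all 4.

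Lipoproteins carry lipid out of the hepatocyte and back. Of 22 genes 15 were lower and 1 higher, with a median of -0.55. Apoa4, an apolipoprotein of chylomicrons and HDL, had 15.7, 34.6 and 12.1 CPM in α7HMZ livers, against 584, 302 and 310.1 CPM in WT livers (log2 fold change -4.27 ± 0.36, adjusted p = 2e-07). Apoc3, an inhibitor of triglyceride clearance, had 471, 417 and 437 CPM in α7HMZ livers, against 1865, 2040.4 and 2222 CPM in WT livers (log2 fold change -2.21 ± 0.22, adjusted p = 1.53e-06). Apoc2, the cofactor of lipoprotein lipase, had 47.3, 59.4 and 47.4 CPM in α7HMZ livers, against 175, 189.8 and 219 CPM in WT livers (log2 fold change -1.92 ± 0.12, adjusted p = 4.16e-09). The groups were far apart in all 3. Tm6sf2, needed for the lipidation of VLDL, fell by less (-1.30 ± 0.17), and so did Apoc4 (-0.95 ± 0.15) and Apoa1 (-0.52 ± 0.16). With the 3 Krt19-rich livers removed, 6 members were lower, and with offsets for GC and quantiles 7 were. Apoa1 lost its call without α7HMZ liver 2 or 3 or WT liver 2 or 3 (adjusted p = 0.0615 to 0.105).

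Among genes of the lipid droplet more fell than rose. Cideb, which serves the lipidation of VLDL, had 67.6, 60.2 and 64.0 CPM in α7HMZ livers, against 251, 289.9 and 298 CPM in WT livers (log2 fold change -2.13 ± 0.10, adjusted p = 8.86e-11). Fitm1 (-1.21 ± 0.26), which helps to form droplets, the lipase gene Pnpla2 (-0.81 ± 0.14) and the droplet protein gene Hsd17b13 (-0.50 ± 0.11) were lower too. Cd36, which takes up fatty acids, was the one member that rose, with 20.2, 30.7 and 39.1 CPM in α7HMZ livers and 13.9, 11.7 and 12.1 CPM in WT livers (log2 fold change 1.24 ± 0.21, adjusted p = 0.000511). In all, 6 of 14 tested members were lower (2 without the 3 Krt19-rich livers).

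Bile acids are made from cholesterol by a classic and an alternative route. Of 25 genes of their synthesis and transport 12 were lower and 2 higher (median -0.39). Cyp8b1, the sterol 12α-hydroxylase that sets the share of cholic acid, had 60.9, 38.4 and 39.5 CPM in α7HMZ livers, against 330.0, 187 and 377 CPM in WT livers (log2 fold change -2.69 ± 0.46, adjusted p = 0.000489). Cyp7b1, the oxysterol 7α-hydroxylase of the alternative route, had 100.3, 167 and 101 CPM in α7HMZ livers, against 402, 588 and 622 CPM in WT livers (log2 fold change -2.13 ± 0.34, adjusted p = 0.000268). Slc27a5, which activates bile acids for conjugation, had 640.4, 663 and 528 CPM in α7HMZ livers, against 1141, 1203 and 1287 CPM in WT livers (log2 fold change -0.99 ± 0.10, adjusted p = 2.64e-06). In each the groups were separated. Amacr (-0.71 ± 0.10) and Cyp27a1 (-0.63 ± 0.12), of the side chain and the alternative route, also fell. Slco1a4, a sinusoidal uptake carrier, rose, with 179, 208 and 204 CPM in α7HMZ livers and 94.0, 59.4 and 88.2 CPM in WT livers (log2 fold change 1.28 ± 0.17, adjusted p = 4.21e-05), and the other that rose, named after its value was seen, was the reductase gene Akr1d1 (0.45 ± 0.11). After removal of the 3 Krt19-rich livers 2 higher and 4 lower were called, and with offsets for GC and quantiles 5 were higher and 6 lower (median -0.12).

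The HNF4-type motif CAAAGTCCA was looked up, on both strands, in windows from 250 bases before to 50 after the RefSeq starts. It was present for 21 of 1147 genes that fell (1.83%), for 0 of 843 genes that rose, and for 70 of all 10415 tested genes with a window (0.672%). It was in 156 of all 32851 windows in the RefSeq table (0.475%). That share is per window and the others are per gene, so they are not on the same scale. The E-box CACGTG was present for 11.9% of the genes that fell, 10.4% of those that rose and 11.6% of all. For the D-box TTATGTAA these shares were 0.872%, 0.237% and 0.701%, and for the SRE letters TCACCCCAC they were 1.13%, 0.593% and 0.73%. These shares describe the letters of the windows and were not tested, and a match is not a site. Stretches of 80 bases around the HNF4-type motif are shown for 4 genes that fell, chosen after their values were seen as the 3 strongest falls with the motif before the start and 1 of the Cyp2c genes that held it (GRCm38.p6, 5′ to 3′ on the strand of the gene, capitals mark the motif).
Treh, chr9:44673126-44673205, plus strand: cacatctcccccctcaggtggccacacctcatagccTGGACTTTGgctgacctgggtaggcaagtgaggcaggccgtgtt
Aspdh, chr7:44465347-44465426, plus strand: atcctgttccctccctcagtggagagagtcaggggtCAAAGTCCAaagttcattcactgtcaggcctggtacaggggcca
Cyp8b1, chr9:121916329-121916408, minus strand: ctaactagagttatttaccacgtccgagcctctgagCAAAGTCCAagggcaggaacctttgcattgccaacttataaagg
Cyp2c70, chr19:40187307-40187386, minus strand: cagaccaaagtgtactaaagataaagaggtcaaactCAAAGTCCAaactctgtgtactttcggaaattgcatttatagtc

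Of these, Treh, the trehalase gene, had 0.0790, 0.124 and 0.168 CPM in α7HMZ livers, against 0.888, 1.67 and 3.19 CPM in WT livers (log2 fold change -3.93 ± 0.62, adjusted p = 0.000231). Aspdh, an aspartate dehydrogenase gene, had 14.5, 12.9 and 8.25 CPM in α7HMZ livers, against 95.5, 126 and 97.2 CPM in WT livers (log2 fold change -3.15 ± 0.20, adjusted p = 3.44e-09). Cyp2c70, the enzyme that makes muricholic acids in mice, had 386, 525 and 371 CPM in α7HMZ livers, against 904, 1502 and 1142 CPM in WT livers (log2 fold change -1.47 ± 0.30, adjusted p = 0.00251). The groups did not overlap in any of them, but these genes were picked after their values were seen.

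Genes of cholesterol synthesis were lower in part. Of 25 members 8 were lower and none was higher (0 at an unadjusted p under 0.05, 0 with DESeq2), with a median of -0.38 at 20:30 and -0.73 in the light phase. Idi1, the isomerase of isopentenyl diphosphate, had 137, 187 and 116 CPM in α7HMZ livers, against 206, 295 and 207 CPM in WT livers (log2 fold change -0.69 ± 0.19, adjusted p = 0.0165), without overlap. Fdps, the farnesyl diphosphate synthase, had 87.3, 127 and 109.6 CPM in α7HMZ livers, against 118, 238 and 179 CPM in WT livers (log2 fold change -0.72 ± 0.23, adjusted p = 0.0344), and its groups overlapped. Hsd17b7, an enzyme of the later steps, fell by a like amount (-0.72 ± 0.20). Only 1 member was lower without the 3 Krt19-rich livers, and over the 17 other settings the number ran from 1 to 13. Idi1 lost its call without α7HMZ liver 1 or 3 or WT liver 2 (adjusted p = 0.056 to 0.0827), and Fdps without α7HMZ liver 1 or 3 or WT liver 2 or 3 (adjusted p = 0.0795 to 0.173). Hsd17b7 lost its call without α7HMZ liver 1 or 3 or WT liver 2 (adjusted p = 0.0525 to 0.0615).

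Fatty acid and triglyceride synthesis showed 7 of 26 members lower and none higher (2 at an unadjusted p under 0.05, 0 with DESeq2), with a median of -0.27. Scd1, the Δ9 desaturase, had 951, 1569 and 1493 CPM in α7HMZ livers, against 3577, 2373 and 3439 CPM in WT livers (log2 fold change -1.23 ± 0.28, adjusted p = 0.00485). Elovl5, an elongase of polyunsaturated fatty acids, had 169, 115 and 89.0 CPM in α7HMZ livers, against 355, 195 and 198 CPM in WT livers (log2 fold change -1.005 ± 0.25, adjusted p = 0.0105), and Fads2 of the same path fell as well (-0.79 ± 0.16). Dgat2, which makes triglyceride, had 350.1, 438 and 459 CPM in α7HMZ livers, against 544, 573 and 654 CPM in WT livers (log2 fold change -0.51 ± 0.11, adjusted p = 0.00464). No α7HMZ liver reached a WT liver in these 4, but all 4 lost their call with offsets for GC and quantiles. With those offsets 1 member of the list was higher and 1 lower, with a median of -0.01. Without the 3 Krt19-rich livers 1 higher and 1 lower were called. For 5 members the difference at 20:30 was less negative, or nearer to 0, than in the light phase. They were Acly, Acacb, Elovl3, Scd2 and Acss2, named after their values were seen. Acacb, the mitochondrial acetyl-CoA carboxylase gene, had a log2 fold change of -0.37 at 20:30 and -1.85 in the light phase (difference 1.48 ± 0.27, adjusted p = 0.0166, and adjusted p = 0.0745 without WT liver 3, 0.113 without the 3 Krt19-rich livers and 0.0621 against 13:30 alone). Elovl5 lost its call without α7HMZ liver 3 or WT liver 1 (adjusted p = 0.056 to 0.071).

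Fatty acid oxidation had 7 of 30 members lower and 1 higher. The ω-hydroxylase genes Cyp4a10 and Cyp4a14, both known targets of PPARα, moved apart. Cyp4a10 had 333, 315 and 198 CPM in α7HMZ livers, against 1199, 429 and 737 CPM in WT livers (log2 fold change -1.48 ± 0.35, adjusted p = 0.00643). Cyp4a14 had 1092, 1419.9 and 910.0 CPM in α7HMZ livers, against 631, 251 and 331 CPM in WT livers (log2 fold change 1.49 ± 0.38, adjusted p = 0.0108). Neither overlapped between the groups, and the pair shares much sequence. Bdh1, which makes β-hydroxybutyrate, fell (-0.86 ± 0.13). Of the list 0 higher and 1 lower were called without the 3 Krt19-rich livers, and 4 higher and 2 lower with offsets for GC and quantiles. Cyp4a14 lost its call without WT liver 3 (adjusted p = 0.062).

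Glycogen genes carried some of the clearer changes in sugar metabolism. Gys2, the liver glycogen synthase, had 88.9, 137 and 121 CPM in α7HMZ livers, against 251, 213 and 237 CPM in WT livers (log2 fold change -1.02 ± 0.13, adjusted p = 3.61e-05). Ppp1r3g, a subunit that directs a phosphatase to glycogen, was nearly absent, with 2 reads over the 3 α7HMZ livers and 36 over the 3 WT livers, so that its ratio of WT to α7HMZ was 24.4 with an exact 95% counting interval of 6.27 to 209 (adjusted p = 0.033). In all 3 of 12 glycogen genes were lower and 1, the glycogenin gene Gyg (0.61 ± 0.20), was higher. Of 15 glycolysis genes 2 fell, Tpi1 (-0.90 ± 0.12) and Gapdh (-0.44 ± 0.10), and Gckr, the regulator of glucokinase, rose, with 137, 149.95 and 137 CPM in α7HMZ livers and 107, 116 and 92.3 CPM in WT livers (log2 fold change 0.43 ± 0.09, adjusted p = 0.00409). Gluconeogenesis had 2 of 9 lower, the pyruvate carboxylase gene Pcx (-0.67 ± 0.12) and Slc37a4, the glucose 6-phosphate carrier (-0.46 ± 0.12). Pck1 had 901, 2455 and 1179 CPM in α7HMZ livers and 2224, 1985 and 2616 CPM in WT livers, overlapped between the groups and did not pass (log2 fold change -0.59 ± 0.38, adjusted p = 0.298). Leaving out the 3 Krt19-rich livers, 1 glycogen, 1 glycolysis and 1 gluconeogenesis gene was lower. The share called was 20.0% in glycolysis and 22.2% in gluconeogenesis, against 19.1% of all genes. With offsets for GC and quantiles 4 glycolysis genes were higher and 1 lower, and Gapdh had a log2 fold change of 0.003. Pcx, Slc37a4 and Gyg lost their call with those offsets. Gyg lost its call without α7HMZ liver 1, 2 or 3 or WT liver 2 or 3 (adjusted p = 0.0587 to 0.131), and Slc37a4 without α7HMZ liver 1 (adjusted p = 0.0742).

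Of 24 genes of insulin signalling and secreted liver factors 8 were lower and 1 higher (1 higher and 1 lower without the 3 Krt19-rich livers). Enho, the gene of the peptide adropin, had 22.9, 22.2 and 10.3 CPM in α7HMZ livers, against 34.4, 64.0 and 71.9 CPM in WT livers (log2 fold change -1.61 ± 0.35, adjusted p = 0.00377). Lect2, a secreted chemotactic factor, had 32.3, 50.8 and 42.3 CPM in α7HMZ livers, against 83.0, 82.1 and 102 CPM in WT livers (log2 fold change -1.09 ± 0.17, adjusted p = 0.000165). Inhbe, the activin E subunit, had 12.2, 18.8 and 23.2 CPM in α7HMZ livers, against 51.7, 42.7 and 23.5 CPM in WT livers (log2 fold change -1.13 ± 0.32, adjusted p = 0.0193). Separation held in all 3, though narrowly for Inhbe. Akt2 (-0.40 ± 0.10) and Igfbp4 (-0.51 ± 0.12) fell by less. With offsets for GC and quantiles Akt2 lost its call and Igfbp4 had a log2 fold change of 0.026. With those offsets 2 members of the list were higher and 4 lower (median 0.02). Inhbe lost its call without α7HMZ liver 1 or WT liver 1 (adjusted p = 0.0845 to 0.096), and Akt2 without WT liver 3 (adjusted p = 0.0555). Igfbp4 lost its call without WT liver 3 (adjusted p = 0.0539).

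Sex-biased genes, which in mice follow the pattern of growth hormone release, moved in both directions in these males. Of 23 male-biased genes 15 were lower and none was higher (0 at an unadjusted p under 0.05, 0 with DESeq2), with a median of -1.04. Mup7, a major urinary protein gene, had 57.5, 185 and 161 CPM in α7HMZ livers, against 4364, 7943 and 7336 CPM in WT livers (log2 fold change -5.61 ± 0.60, adjusted p = 3.98e-06), and Mup20 had 1623, 2085 and 1954 CPM in α7HMZ livers, against 6521, 7416 and 7335 CPM in WT livers (log2 fold change -1.91 ± 0.18, adjusted p = 1e-06). Hsd3b5, a steroid dehydrogenase of male liver, had 6.03, 18.5 and 17.7 CPM in α7HMZ livers, against 86.1, 81.5 and 107 CPM in WT livers (log2 fold change -2.72 ± 0.33, adjusted p = 1.79e-05). In none of them did a liver of one group reach the other. Of 23 tested female-biased genes 8 were higher and 2 lower, with a median of 1.05 at 20:30 and 0.19 in the light phase. Cyp2b13 had 10.5, 17.0 and 16.7 CPM in α7HMZ livers, against 1.18, 0.772 and 0.255 CPM in WT livers (log2 fold change 4.24 ± 0.42, adjusted p = 1.75e-06). Cyp2c69 was one of the female-biased genes that fell (-1.47 ± 0.27). With the 3 Krt19-rich livers removed, 7 male-biased genes were lower and 4 female-biased genes were higher.

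Growth hormone signals to the liver through its receptor and STAT5. Of 12 genes 1 was lower, the receptor gene Ghr, with 256, 366 and 373 CPM in α7HMZ livers, against 468, 398 and 491 CPM in WT livers (log2 fold change -0.45 ± 0.13, adjusted p = 0.0214), and none was higher (1 at an unadjusted p under 0.05, 0 with DESeq2). The signal transducer Stat5a had 17.1, 18.5 and 16.7 CPM in α7HMZ livers, against 11.6, 13.8 and 12.6 CPM in WT livers and did not pass (adjusted p = 0.107). With the 6 livers of 20:30 alone 2 genes of the list were higher, Stat5a (adjusted p = 0.0381) and Bcl6, named after its value was seen, and none was lower, since Ghr did not pass (adjusted p = 0.117). Ghr lost its call without α7HMZ liver 1 or WT liver 1 or 3 (adjusted p = 0.0551 to 0.0986).

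The liver secretes most plasma proteins. Of 24 clotting genes 9 were lower and none was higher (0 at an unadjusted p under 0.05, 0 with DESeq2, and 5 lower without the 3 Krt19-rich livers). Proz, protein Z, had 183, 182 and 153 CPM in α7HMZ livers, against 363, 303 and 406 CPM in WT livers (log2 fold change -1.05 ± 0.13, adjusted p = 2.07e-05). F10 (-0.81 ± 0.12), F9 (-0.63 ± 0.11), the kininogen gene Kng1 (-0.57 ± 0.10) and the vitronectin gene Vtn (-0.56 ± 0.13) fell as well. All 5 were separated between the groups, with the smallest gap in Vtn. With offsets for GC and quantiles Kng1 and Vtn lost their call, and 1 clotting gene was higher and 4 lower (median 0.01).

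Complement had 9 of 20 genes lower and 1 higher (5 lower without the 3 Krt19-rich livers). C8g, the γ chain of C8, had 57.2, 78.2 and 51.5 CPM in α7HMZ livers, against 438, 471 and 601 CPM in WT livers (log2 fold change -3.01 ± 0.17, adjusted p = 7.74e-10), while C8a, the α chain of the same complex, fell by less (-1.03 ± 0.13). C4bp (-0.89 ± 0.13), C9 (-0.81 ± 0.14) and Masp2 (-0.49 ± 0.08) fell too. With offsets for GC and quantiles 2 complement genes were higher and 6 lower (median 0.04). Among 23 acute phase genes 7 were lower and 4 higher. Saa4, the constitutive serum amyloid A, had 182, 152 and 188 CPM in α7HMZ livers, against 431, 466 and 411 CPM in WT livers (log2 fold change -1.32 ± 0.17, adjusted p = 3.72e-05). Orm3, an orosomucoid gene with close paralogs, had 12.2, 8.42 and 19.03 CPM in α7HMZ livers, against 3.75, 5.02 and 2.94 CPM in WT livers (log2 fold change 1.80 ± 0.35, adjusted p = 0.00147). Il1r1, the interleukin-1 receptor, fell (-1.12 ± 0.19), as did Crp (-0.75 ± 0.16) and Apcs (-0.60 ± 0.16). After removal of the 3 Krt19-rich livers 5 acute phase genes were lower and 0 were higher. Apcs lost its call without α7HMZ liver 3 or WT liver 3 (adjusted p = 0.056 to 0.0813).

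In amino acid metabolism 8 of 39 tested genes were lower and 5 higher. Asns, the asparagine synthetase and a known target of the amino acid response, had 42.1, 33.5 and 30.4 CPM in α7HMZ livers, against 4.29, 5.53 and 7.78 CPM in WT livers (log2 fold change 2.59 ± 0.34, adjusted p = 3.49e-05), the largest rise of the list. Enzymes of tryptophan breakdown fell, Kmo with 125, 126 and 108 CPM in α7HMZ livers, against 421, 324 and 395 CPM in WT livers (log2 fold change -1.66 ± 0.13, adjusted p = 6.34e-08) and Haao with 213, 252 and 219.6 CPM in α7HMZ livers, against 445, 524 and 548 CPM in WT livers (log2 fold change -1.15 ± 0.12, adjusted p = 2.16e-06). Cps1, the first enzyme of the urea cycle, rose by 0.50 ± 0.14 and Arg1, the last, by 0.47 ± 0.15. For these 5 genes the groups did not overlap. Without the 3 Krt19-rich livers 1 higher and 2 lower were called, and offsets for GC and quantiles gave 13 higher and 3 lower. Asns was also the only one of 26 genes of the unfolded protein and integrated stress responses to pass, and Atf4, which encodes a factor that binds it, had 73.7, 84.4 and 73.4 CPM in α7HMZ livers, against 93.4, 116 and 87.3 CPM in WT livers (adjusted p = 0.0898). Arg1 lost its call without α7HMZ liver 2 or WT liver 1 or 3 (adjusted p = 0.0745 to 0.118), and Cps1 without WT liver 3 (adjusted p = 0.066).

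Iron and heme genes had 6 of 22 lower and none higher (0 at an unadjusted p under 0.05, 0 with DESeq2, and 1 lower without the 3 Krt19-rich livers). Trf, transferrin, had 9539, 7642 and 7577 CPM in α7HMZ livers, against 12659.8, 17625 and 21665 CPM in WT livers (log2 fold change -1.07 ± 0.17, adjusted p = 0.000339). Tfr2, the sensor of loaded transferrin, fell as well (-0.55 ± 0.12). Alas2, the erythroid form of the first enzyme of heme synthesis, had 62.5, 82.8 and 79.2 CPM in α7HMZ livers, against 155, 143 and 193 CPM in WT livers (log2 fold change -1.13 ± 0.12, adjusted p = 5.58e-06), while the other 6 erythroid markers were at 0.255 CPM or less in every liver. Fabp2, the fatty acid binding protein best known from the gut, had 15.2, 23.0 and 19.1 CPM in α7HMZ livers, against 60.4, 46.1 and 43.7 CPM in WT livers (log2 fold change -1.397 ± 0.21, adjusted p = 0.000179), without overlap. Of the other 5 gut genes Lct and Sis were at 0 in all 6 livers, Reg3g and Muc2 had at most 2 reads in any, and Vil1, the villin gene, had 1.19, 0.371 and 1.12 CPM in α7HMZ livers, against 0.247, 0.515 and 0.255 CPM in WT livers (log2 fold change 1.58 ± 0.56, adjusted p = 0.0558), with overlapping groups, and passed without α7HMZ liver 2 (adjusted p = 0.0168). The groups were also separated in Trf, Tfr2 and Alas2. With offsets for GC and quantiles Tfr2 lost its call, and 1 iron and heme gene was higher and 1 lower. The median of the list was then 0.11, against -0.11 with TMM factors.

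Nuclear genes of the respiratory chain were lower in number but by small amounts. Of 75 members 23 were lower and none was higher (0 at an unadjusted p under 0.05, 0 with DESeq2), with a median of -0.34 at 20:30 and 0.06 in the light phase. Uqcrq, a subunit of complex III, had 146, 174 and 124 CPM in α7HMZ livers, against 195, 242 and 266 CPM in WT livers (log2 fold change -0.66 ± 0.17, adjusted p = 0.0109), and Ndufb10, a subunit of complex I, had 91.6, 91.5 and 97.9 CPM in α7HMZ livers, against 111, 151 and 136 CPM in WT livers (log2 fold change -0.50 ± 0.14, adjusted p = 0.0168). The groups did not overlap in either. Upper quartile scaling left 12 lower, offsets for GC and quantiles gave 3 higher and 1 lower, and none was called without the 3 Krt19-rich livers. Of 75 tested ribosomal protein genes 4 were lower, among them Rpl27 (-0.37 ± 0.12), Rpl35a (-0.49 ± 0.14) and Rps14 (-0.62 ± 0.19), with a median of -0.17, and with those offsets 5 were higher and none lower. Ribosome biogenesis had none of 25 genes past the test (0 higher and 1 lower at an unadjusted p under 0.05, none with DESeq2). Uqcrq lost its call without α7HMZ liver 3 or WT liver 3 (adjusted p = 0.058 to 0.0635), and Ndufb10 without WT liver 2 or 3 (adjusted p = 0.0584 to 0.0692). Rpl27 lost its call without α7HMZ liver 1, 2 or 3 or WT liver 2 or 3 (adjusted p = 0.0535 to 0.29), and Rpl35a without α7HMZ liver 1 or WT liver 3 (adjusted p = 0.0773 to 0.0825). Rps14 lost its call without α7HMZ liver 1 or 3 or WT liver 2 or 3 (adjusted p = 0.0503 to 0.182).

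Stress and immediate-early lists held few calls. Of 20 heat shock genes 3 were higher, the inducible chaperone genes Hspa1a, with 7.62, 12.8 and 8.25 CPM in α7HMZ livers and 4.24, 3.22 and 5.36 CPM in WT livers (log2 fold change 1.11 ± 0.35, adjusted p = 0.0314), its near-identical copy Hspa1b (1.09 ± 0.36) and Hspa4l (0.67 ± 0.17). Of 18 immediate-early genes 1 rose, Btg2 (0.59 ± 0.17), and of 14 glucocorticoid and metallothionein genes 1 fell, Mt1, with 298, 137 and 160.3 CPM in α7HMZ livers, against 612, 314 and 492 CPM in WT livers (log2 fold change -1.25 ± 0.42, adjusted p = 0.0451). None of 19 NRF2 targets passed (1 higher and 3 lower at an unadjusted p under 0.05, 1 lower with DESeq2). Of 28 interferon genes 4 were lower and 2 higher. Oasl1 had 2.26, 2.23 and 1.52 CPM in α7HMZ livers, against 6.12, 7.33 and 6.12 CPM in WT livers (log2 fold change -1.68 ± 0.25, adjusted p = 0.00016), and Irf7, the interferon regulatory factor, had 20.1, 10.7 and 12.5 CPM in α7HMZ livers, against 32.0, 26.4 and 33.9 CPM in WT livers (log2 fold change -1.09 ± 0.25, adjusted p = 0.00574). These genes did not overlap between the groups. Hspa1a lost its call without α7HMZ liver 2 or WT liver 1, 2 or 3 (adjusted p = 0.0557 to 0.111), and Hspa1b without α7HMZ liver 2 or 3 or WT liver 1, 2 or 3 (adjusted p = 0.0649 to 0.144). Hspa4l lost its call without α7HMZ liver 2 or WT liver 1 (adjusted p = 0.0521 to 0.0541), and Btg2 without α7HMZ liver 3 or WT liver 3 (adjusted p = 0.0891 to 0.113). Mt1 lost its call without α7HMZ liver 2 or 3 or WT liver 1 or 3 (adjusted p = 0.116 to 0.143).

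Among 16 transcription factors of the hepatocyte 3 were higher, among them Hnf4a itself and Prox1, with 56.8, 83.2 and 126 CPM in α7HMZ livers and 47.9, 37.7 and 48.9 CPM in WT livers (log2 fold change 0.98 ± 0.32, adjusted p = 0.038), and none was lower (1 at an unadjusted p under 0.05, 0 with DESeq2). None of the 3 passed without the 3 Krt19-rich livers. The share called among these transcription factors was 18.8%, against 19.1% of all genes. The list of 31 tested Wnt pathway genes had 4 higher and 2 lower, a share of 19.4% that was near that of all genes. Wnt5a, a ligand, had 3.29, 2.35 and 4.32 CPM in α7HMZ livers and 1.53, 0.901 and 0.574 CPM in WT livers (log2 fold change 1.67 ± 0.37, adjusted p = 0.00413), and the receptor gene Fzd4 (0.75 ± 0.21), the ubiquitin ligase gene Znrf3 (0.61 ± 0.16) and Porcn (0.76 ± 0.23), which acylates Wnt ligands, were the other 3 that rose. Serpinf1, a secreted antagonist, had 321, 358 and 326 CPM in α7HMZ livers, against 601, 609 and 837 CPM in WT livers (log2 fold change -1.03 ± 0.12, adjusted p = 1.25e-05), and Ctnnbip1, which binds β-catenin, fell with it (-0.91 ± 0.17). The counts were 1 higher and 2 lower without the 3 Krt19-rich livers and 7 higher and 2 lower under upper quartile scaling. Prox1 lost its call without α7HMZ liver 2 or 3 or WT liver 1, 2 or 3 (adjusted p = 0.0534 to 0.207), and Fzd4 without α7HMZ liver 3 or WT liver 3 (adjusted p = 0.0726 to 0.094). Znrf3 lost its call without α7HMZ liver 3 (adjusted p = 0.065), and Porcn without α7HMZ liver 2 or WT liver 1 or 3 (adjusted p = 0.128 to 0.14).

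Hepatocytes differ along the lobule, from periportal to perivenous. Of 18 perivenous genes 6 were lower and 2 higher, led by Cyp2c37, with 39.95, 60.9 and 45.4 CPM in α7HMZ livers, against 783, 673 and 807 CPM in WT livers (log2 fold change -3.95 ± 0.25, adjusted p = 2.72e-09), and Cyp2c29 (-1.86 ± 0.20). Cyp2e1 fell too (-0.79 ± 0.15). Of 17 tested periportal genes 3 were lower and 2 higher, among them Cyp2f2 with 634, 673 and 664 CPM in α7HMZ livers, against 1305, 1455 and 1516 CPM in WT livers (log2 fold change -1.12 ± 0.13, adjusted p = 1.13e-05). With offsets for GC and quantiles 6 periportal genes were higher and 2 lower, and 2 perivenous genes were higher and 3 lower. Without the 3 Krt19-rich livers 0 higher and 2 lower of the periportal and 0 higher and 3 lower of the perivenous genes were called. Markers of the fetal liver had 2 of 11 tested members higher, the imprinted genes Meg3, with 6.74, 8.98 and 6.68 CPM in α7HMZ livers and 2.12, 2.19 and 1.404 CPM in WT livers (log2 fold change 1.98 ± 0.48, adjusted p = 0.00867), and Peg3 (1.25 ± 0.36). Neither of the imprinted genes passed without these 3 livers. Of the fetal liver markers 18.2% were called, against 19.1% of all genes. Meg3 lost its call without WT liver 3 (adjusted p = 0.0562), and Peg3 without WT liver 1 or 3 (adjusted p = 0.0964 to 0.119).

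Growth receptors had 2 of 18 tested genes higher and 1 lower (16.7% called, against 19.1% of all genes). Fgfr1, a fibroblast growth factor receptor, had 16.5, 12.6 and 14.2 CPM in α7HMZ livers, against 6.46, 8.11 and 8.74 CPM in WT livers (log2 fold change 0.91 ± 0.15, adjusted p = 0.000286), and Fgfr3 had 15.1, 11.2 and 11.004 CPM in α7HMZ livers, against 23.0, 38.3 and 18.8 CPM in WT livers (log2 fold change -1.07 ± 0.23, adjusted p = 0.00313). The kinase gene Src had 4.25, 1.61 and 4.04 CPM in α7HMZ livers, against 1.78, 2.06 and 1.85 CPM in WT livers (log2 fold change 0.84 ± 0.28, adjusted p = 0.0455). Fgfr1 and Fgfr3 were separated between the groups, while Src followed Krt19 in the α7HMZ livers and overlapped with WT livers. Of 23 tested genes of epithelial to mesenchymal transition 1 was higher, the metalloproteinase gene Mmp19 (0.35 ± 0.11), and of 26 tested cell cycle genes 1 was lower, Pcna (-0.42 ± 0.13). Mmp14 had 32.5, 24.3 and 31.8 CPM in α7HMZ livers, against 20.1, 21.2 and 21.1 CPM in WT livers and did not pass (adjusted p = 0.0784). Myc had 35.4, 7.49 and 29.4 CPM in α7HMZ livers, against 13.2, 14.4 and 17.2 CPM in WT livers, with α7HMZ liver 2 lowest of all 6, and did not pass (adjusted p = 0.402). Src lost its call without α7HMZ liver 1 or 3 or WT liver 1, 2 or 3 (adjusted p = 0.0643 to 0.193), and Mmp19 without α7HMZ liver 1, 2 or 3 or WT liver 1 or 3 (adjusted p = 0.0707 to 0.164). Pcna lost its call without α7HMZ liver 1 or 3 or WT liver 2 (adjusted p = 0.0777 to 0.0991).

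The clock genes were compared because 20:30 lies at another phase than the earlier times. Of 19 core clock genes 3 were higher at 20:30, Arntl, Clock and Cry1, and 2 were lower, Nr1d1 and Nr1d2. Arntl, which encodes BMAL1, had 26.1, 10.8 and 13.8 CPM in α7HMZ livers, against 5.18, 7.98 and 8.29 CPM in WT livers (log2 fold change 1.28 ± 0.29, adjusted p = 0.00531), and Cry1, a repressor of BMAL1 and CLOCK, had 42.9, 38.0 and 40.4 CPM in α7HMZ livers, against 22.6, 27.5 and 28.5 CPM in WT livers (log2 fold change 0.63 ± 0.16, adjusted p = 0.0121). Nr1d1, the receptor REV-ERBα that represses Arntl, had 3.45, 7.74 and 5.28 CPM in α7HMZ livers, against 13.1, 5.79 and 8.55 CPM in WT livers (log2 fold change -0.82 ± 0.27, adjusted p = 0.0415), with overlapping groups. Its paralog Nr1d2 was lower without overlap (-0.63 ± 0.21). In α7HMZ liver 1, which had the most Arntl, Nr1d1 and Nr1d2 were lowest, and this liver also held Krt19 and fat transcripts. Of 12 output genes Dbp (-1.70 ± 0.37) and Nampt, the enzyme of NAD salvage (-0.65 ± 0.16), fell. The share called was 16.7% of the output genes and 26.3% of the core clock genes, against 19.1% of all genes. Leaving out the 3 Krt19-rich livers, Arntl (0.70, adjusted p = 0.241) and Cry1 (adjusted p = 0.203) lost their call, Clock kept it (adjusted p = 0.0487), and none of the fallen clock or output genes passed. Per3, named after its value was seen, passed as higher there but not with all 6 livers (adjusted p = 0.131). Nr1d1 lost its call without α7HMZ liver 1 or 3 or WT liver 1 or 3 (adjusted p = 0.0771 to 0.284), and Nr1d2 without α7HMZ liver 1 or 3 or WT liver 1, 2 or 3 (adjusted p = 0.0509 to 0.145). Cry1 lost its call without WT liver 1 (adjusted p = 0.0578), and Nampt without WT liver 1 (adjusted p = 0.0508).

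The genotype difference at 20:30 departed from that of the light phase in 261 genes, 1.96% of those tested, more positive in 123 (0.922%) and more negative in 138 (1.03%). The light phase value is the mean of the differences at 10:30 and 13:30, and the 10:30 livers lay on another flow cell. Against 13:30 alone, on the same flow cell, 15 were more positive and 15 more negative, and without the 3 Krt19-rich livers 16 and 21 were. Without α7HMZ liver 1 the counts were 78 and 63, without α7HMZ liver 3 they were 39 and 23, and without WT liver 3 they were 12 and 6. Slc10a2 had the smallest p (difference -3.81 ± 0.46, adjusted p = 0.00189). In α7HMZ livers it had 9.22, 25.0 and 11.9 CPM at 10:30 and 10.6, 15.1 and 8.22 CPM at 13:30, and under 1 CPM at 20:30. In WT livers it had 24.8, 23.3 and 20.5 CPM at 10:30 and 70.2, 35.5 and 56.8 CPM at 13:30. Livers of the mutants lay below the WT livers at 13:30 and 20:30, and the groups overlapped at 10:30. Myom2 had 3.78, 1.15 and 2.85 CPM at 13:30 in α7HMZ livers and 10.7, 16.8 and 17.0 CPM in WT livers (difference of 20:30 from the light phase -5.18 ± 0.73, adjusted p = 0.00574).

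Further genes departed from the light phase. Clock, the partner of BMAL1, had a log2 fold change of 0.71 at 20:30 and -0.26 in the light phase (difference 0.97 ± 0.15, adjusted p = 0.01). Cd207, the lectin langerin, had 3.09, 2.60 and 3.37 CPM in α7HMZ livers and 5.28, 9.65 and 7.14 CPM in WT livers at 20:30 (difference -1.93 ± 0.31, adjusted p = 0.01). The α7HMZ livers were above the WT livers at 13:30 (6.51, 8.30 and 7.99 CPM in α7HMZ, against 1.29, 2.35 and 2.56 CPM in WT). At 10:30 they were not, and the groups overlapped (4.30, 3.23 and 5.004 CPM in α7HMZ, against 7.05, 4.90 and 5.76 CPM in WT). Hsd17b6, which acts on androgens, was -0.93 at 20:30 and 0.31 in the light phase (difference -1.24 ± 0.20, adjusted p = 0.01). For Chd6, a chromatin remodeler gene, the light phase difference was near 0 and that at 20:30 was 1.01 (difference 1.01 ± 0.16, adjusted p = 0.0105), with 19.6, 20.6 and 20.6 CPM in α7HMZ livers and 10.0, 9.65 and 10.4 CPM in WT livers at 20:30.

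The transcript 8430419L09Rik had 63.9, 76.8 and 59.9 CPM in α7HMZ livers and 60.7, 61.5 and 66.3 CPM in WT livers at 20:30 and a light phase log2 fold change of 1.15 (difference -1.06 ± 0.14, adjusted p = 0.00396). Pcp4l1 stayed higher at 20:30 but by less (difference -1.55 ± 0.27, adjusted p = 0.0134). Rapgef2, an exchange factor of RAP, had a log2 fold change of 0.49 at 20:30 and -0.42 in the light phase (difference 0.91 ± 0.14, adjusted p = 0.01). Arntl (2.23 ± 0.38, adjusted p = 0.0134) and Dbp (-2.29 ± 0.44, adjusted p = 0.02) differed from the light phase in opposite directions. Pcp4l1 lost its call against the light phase without WT liver 3 (adjusted p = 0.062), and Dbp without α7HMZ liver 3 or WT liver 3 (adjusted p = 0.0652 to 0.0745). Without the 3 Krt19-rich livers, 2 of the 11 genes set against the light phase here kept their call, Hsd17b6 and Pcp4l1, and the others had an adjusted p of 0.058 to 0.152. Against 13:30 alone, Arntl, Chd6, Dbp and Hsd17b6 lost it (adjusted p = 0.0599 to 0.139).

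**Figure D5:**
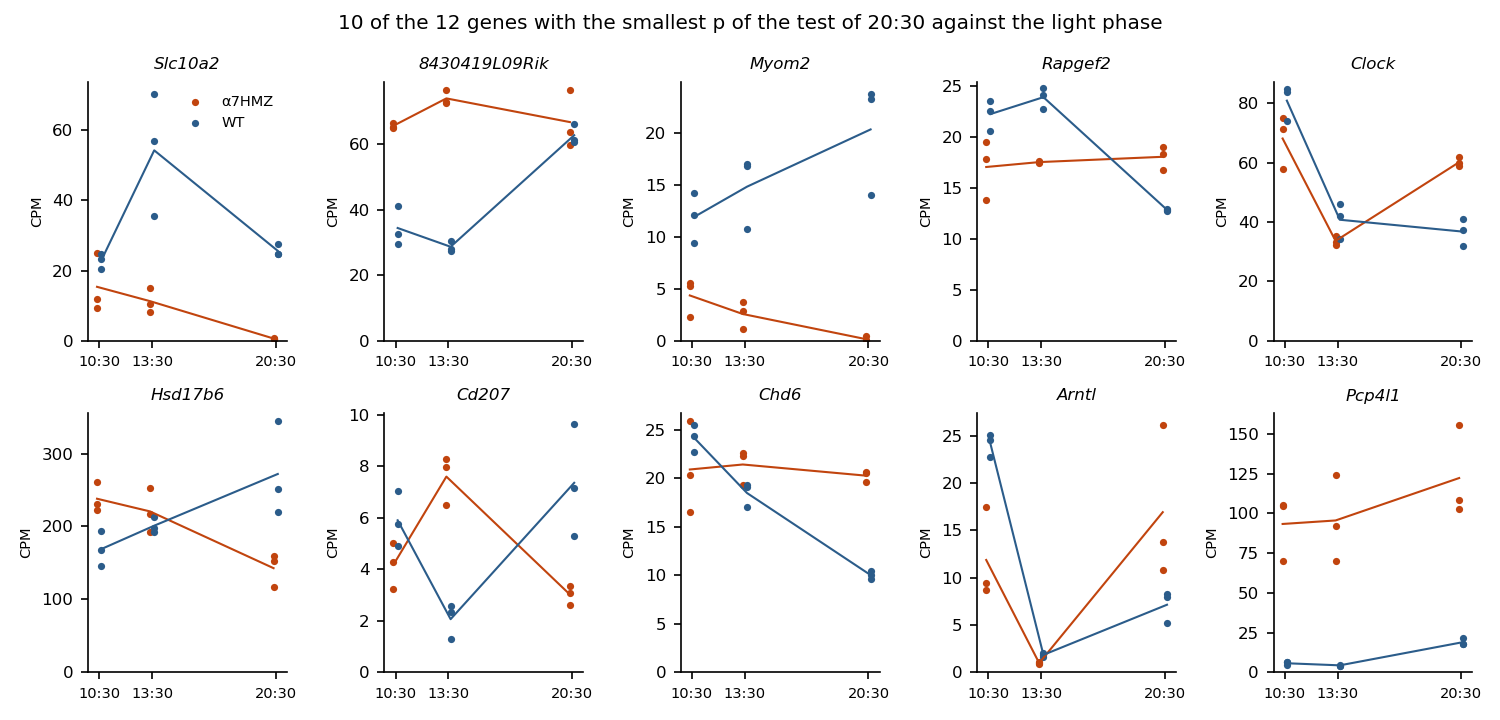
CPM of 10 genes (y axis, from 0) at 10:30, 13:30 and 20:30 (x axis, to scale in hours), with α7HMZ livers in rust, WT livers in blue, points for single livers and lines through the means of 3. Slc10a2 and Myom2 were under 1 CPM in α7HMZ livers at 20:30, and Chd6 lay farther apart by genotype at 20:30 than at 13:30.

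The region around Hnf4a was examined because sequence near a targeted allele can come from another strain. Within 10 Mb of the gene 37 of 169 tested genes were called, which is 21.9%, against 19.1% over all genes. Within 5 Mb the share was 23.1% and within 20 Mb 17.6%. Serinc3, a neighbour on chromosome 2 from 163623272 to 163645131, had 182, 187 and 192 CPM in α7HMZ livers, against 483, 500.4 and 433 CPM in WT livers (log2 fold change -1.34 ± 0.08, adjusted p = 2.45e-09). Pkig (-1.399 ± 0.13) and Neurl2 (-2.63 ± 0.24) were lower, and Chd6, named above, lies in the same window. The groups did not overlap in any of these 4 genes, which were picked by smallest p. The part of strain in these values was not tested.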

How the data were processed

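Poly(A) RNA of 24 livers was sequenced with unstranded TruSeq v2 libraries and single reads of 75 bases. Per the labels and the study's methods, the authors aligned reads to mm10 with TopHat2 2.1.1, kept reads with 1 alignment and counted them per gene with HTSeq 0.6.1, and the deposited table holds these raw counts. Deposited FPKM values were not used here. The livers of a group at one time were taken from separate mice in succession, and were rinsed but may carry neighbouring tissue. No 2 livers of a group at 20:30 agreed within counting noise.

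The fit across all genes used the 18 fed libraries in 6 groups, with edgeR 4.0.16 (R 4.3.3, limma 3.58.1), TMM factors, its default filter on low counts by group and the quasi-likelihood test, with an adjusted p under 0.05 as the threshold. The contrasts were α7HMZ minus WT at 20:30, and that difference minus the mean of those at 10:30 and 13:30. The total counts at 20:30 ran from 8545959 to 22850811, so 1 CPM stood for 8 reads in WT liver 2 and 25 reads in α7HMZ liver 1. The code was tested on simulated counts. Named genes were the 12 largest changes in each direction (adjusted p under 0.05, mean log2 CPM of at least 1, no overlap of livers), up to 5 per list taken by smallest p, the 12 with the smallest p against the light phase, the 5 with the smallest p within 10 Mb of Hnf4a, genes the study discusses, and Hnf4a, Krt19 and Ctrb1. Some genes that the rule picks are not reported here. Genes named outside this rule are said to be so or are markers. The comparison, the lists and the rule were chosen with earlier results of these data known. Gene coordinates came from GENCODE annotation of GRCm38, and 21777 of 23411 symbols matched it directly and 1278 through older symbols. Promoter windows came from RefSeq on GRCm38.p6.

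Alternatives were RLE and upper quartile factors, offsets for GC content and full quantiles in place of the EDASeq package, DESeq2 1.42.0, other filters, the 6 or all 24 libraries, the replicate block, Krt19 as a covariate, and livers left out. Tables and plots were made with Python 3.11.15, pandas 2.3.3, numpy 2.4.6 and matplotlib 3.10.9. The fasted livers were left out of the main comparison.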

Additional observations from a re-analysis of the deposited data

Results flagged for a closer look

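The test of the genotype difference at 20:30 against that of the light phase passed in 261 genes, and 10 of the 12 with the smallest p are listed here as values of that difference on the log2 scale, from edgeR's quasi-likelihood test. More negative at 20:30 were Slc10a2 (-3.81 ± 0.46, adjusted p = 0.00189), the bile acid transporter, and Myom2 (-5.18 ± 0.73, adjusted p = 0.00574), the sarcomere protein. Hsd17b6 (-1.24 ± 0.20, adjusted p = 0.01), Cd207 (-1.93 ± 0.31, adjusted p = 0.01), Pcp4l1 (-1.55 ± 0.27, adjusted p = 0.0134) and 8430419L09Rik (-1.06 ± 0.14, adjusted p = 0.00396) were also more negative. More positive at 20:30 were the clock genes Arntl (2.23 ± 0.38, adjusted p = 0.0134) and Clock (0.97 ± 0.15, adjusted p = 0.01). Chd6 (1.01 ± 0.16, adjusted p = 0.0105) and Rapgef2 (0.91 ± 0.14, adjusted p = 0.01) were more positive too. The light phase value averages 10:30 and 13:30, and the 10:30 livers were on another flow cell than those of 20:30, so time and flow cell cannot be told apart where that time enters. Of these 10 genes 2 kept their call without the 3 Krt19-rich livers, Hsd17b6 and Pcp4l1, and 7 kept it against 13:30 alone, where Arntl, Chd6 and Hsd17b6 did not (adjusted p = 0.0599 to 0.0826).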

How the results depend on the processing

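All 4 counts of genes kept within 1.5 times their value with RLE or upper quartile factors and with the other filters on low counts. The 1105 higher and 1446 lower genes at 20:30 became 739 higher and 809 lower with the 6 livers of 20:30 alone, 338 and 523 without the 3 Krt19-rich livers, and 338 and 329 with a log2 fold change of at least 1 in size. With 1 liver of 20:30 left out they ran from 547 to 1036 higher and from 852 to 1364 lower. The 123 genes more positive and 138 more negative at 20:30 than in the light phase were 75 and 64 with offsets for GC content and quantiles, 373 and 454 with DESeq2, and 77 and 69 with all 24 livers. They were 16 and 21 without the 3 Krt19-rich livers, 49 and 43 with Krt19 as a covariate, and 15 and 15 against 13:30 alone. With 1 liver left out they ran from 12 to 137 and from 6 to 240. Upper quartile factors raised the share of higher genes among those called to 54.01%, against 43.32% with TMM.

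Replicate numbers did not pair the livers: deviations from the group means of α7HMZ and WT livers of the same number correlated at -0.0339, -0.123 and 0.0253 across genes. With the replicate number as a block, 1041 genes were higher and 1241 lower, and 61 were more positive and 34 more negative than in the light phase.

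Of 154 genes named as called at 20:30, 82 kept their call in all 17 alternatives, 65 lost it without the 3 Krt19-rich livers, and 30 without WT liver 3. The sign turned for Ctrb1 with DESeq2 (-0.04), with Krt19 as a covariate (-0.09), and without α7HMZ liver 3 (-0.42), WT liver 1 (-0.42) or WT liver 3 (-0.23). It turned for Krt19 without WT liver 1 (-0.15) and without the 3 Krt19-rich livers (-0.29), where it also turned for Myc (-1.02), Src (-0.17) and Pck1 (0.021). Gapdh (0.003) and Igfbp4 (0.026) turned with offsets for GC content and quantiles, and 8430419L09Rik (-0.024) without α7HMZ liver 2. With 1 liver of 20:30 left out, the log2 fold changes ran from -0.421 to 3.565 for Ctrb1, from -0.155 to 1.912 for Krt19 and from -0.024 to 0.161 for 8430419L09Rik. The cause was not tested. With 3 mice a group, several of which had raised Krt19 or Ctrb1 of untested source, small differences rest on few livers. At the depth of WT liver 2 a gene at 1 CPM had 8 reads.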
